A study of Medicago sativa with 9 samples.

Results

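Of 64684 predicted long non-coding RNAs (lncRNAs) listed for alfalfa leaves, 54 were found in every library of plants sprayed with the lower selenite dose and listed at 0 in every other library. They were chosen by measured values. The deposited coverage was turned into estimated reads, and a transcript was kept if it had at least 5 of them in each of the 3 low Se libraries and 0 in each of the 3 control and 3 high Se libraries. These 54 are 0.0835% of the listed transcripts. Since the same values chose them, their levels in the 9 libraries are a description and are not tested.

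The leaves came from field-grown Medicago sativa L. of the cultivar Kangsai. Treatment began at a plant height of 20 cm, with 3 sprays 7 days apart. Low Se stands for selenite at 100 mg/L, high Se for 500 mg/L, and control for the group labelled CK, whose spray the labels do not state. Since the series text mentions 3 concentrations of selenite, a control dose of 0 is not certain. There were 3 libraries per group, made from total leaf RNA after removal of rRNA. The labels do not tell whether these were separate plants, and the spread between libraries may be technical. No protein-coding gene is in the table, so neither leaf markers nor markers of other tissues could be read.

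Long non-coding RNAs are transcripts of at least 200 bases without a predicted protein. Many are made at low levels, in few cells or under particular conditions, and some act on the gene they overlap or lie next to, through the DNA, the RNA or the act of transcription itself. Plants absorb selenite, a salt of selenium, largely through phosphate carriers and pass it into the sulfur assimilation pathway, where it becomes toxic when it replaces sulfur in proteins. Coding genes of these pathways are well described in plants, while the roles of the lncRNAs listed here are not given in the sources used. Whole leaves were measured, so fewer cells of a type and less RNA per cell cannot be told apart.

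The implied depth was 1.68 to 2.65 gigabases of aligned sequence in the low Se libraries and 1.44 to 2.97 in the others. Between 26121 and 36455 of the listed transcripts were above 0 in a library. Estimated reads, scaled to a 141-base read, were mostly not whole: of values between 100 and 800 bases, 8.30% to 13.6% per library lay within 0.005 reads of a whole number. Among values at 1 to 8 whole reads, even numbers were commoner than odd ones in all 9 libraries. A listing of 0 is therefore reported as such and not as absence.

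The members were weakly to moderately expressed. Mean FPKM (read fragments scaled to transcript length and library size) over the 3 low Se libraries ran from 0.925 to 7.85, with a median of 2.95. Of the 8765 transcripts with at least 5 estimated reads in all 3 low Se libraries, 15.3% had a higher mean than the highest member, and the median of those 8765 was 2.92 FPKM. Members therefore sat at the middle of the detected levels, with the top of the range missing. Together they took 0.0493% to 0.0550% of the FPKM of a low Se library.

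The highest member by mean FPKM was the intergenic MSTRG.61101.1, a single exon of 714 bases without a strand on chromosome 3.4 (7565603 to 7566316). It had 4.88, 10.6 and 8.04 FPKM in low Se 1, 2 and 3, from 41.5, 143 and 86.1 estimated reads. In the other libraries 1 read would have given it 0.0664 to 0.137 FPKM, and it was listed at 0 in all 6. Low Se 2 was the highest of its 3 libraries and low Se 1 the lowest, a 2.18-fold spread within the group.

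MSTRG.152519.1, within an intron of MS.gene88506 (chromosome 8.3, 58478015 to 58478259), had 12.6, 5.65 and 4.20 FPKM in the same order, with low Se 1 far above the others. MSTRG.61510.1, intergenic on chromosome 3.4 (14661994 to 14662282), was the most even of all members, at 7.41, 7.32 and 6.86 FPKM. MSTRG.131549.1, in an intron of MS.gene94703 on chromosome 7.3 (35957745 to 35958251), had 5.46, 11.3 and 3.81 FPKM, with low Se 2 highest. The host genes carry no functional annotation in the sources used, so an intronic position is all that is known of these transcripts.

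The rest of the 10 highest were intergenic and short, between 202 and 451 bases. MSTRG.13184.1 (chromosome 1.2, 36468883 to 36469099) was steady at 6.0, 5.62 and 5.12 FPKM, a mean of 5.58 ± 0.439 (SD, n = 3). MSTRG.107038.1 on chromosome 6.1 and MSTRG.24054.1 on chromosome 1.4 were lowest in low Se 1 and highest in low Se 3, with 5.81 ± 2.29 and 5.21 ± 1.39 FPKM. MSTRG.45921.1 on chromosome 3.1, MSTRG.100641.1 on chromosome 5.3 and MSTRG.149735.3 on chromosome 8.3 were highest in low Se 2, with 4.68 ± 1.99, 4.52 ± 1.85 and 4.49 ± 1.23 FPKM.

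**Figure D1:**
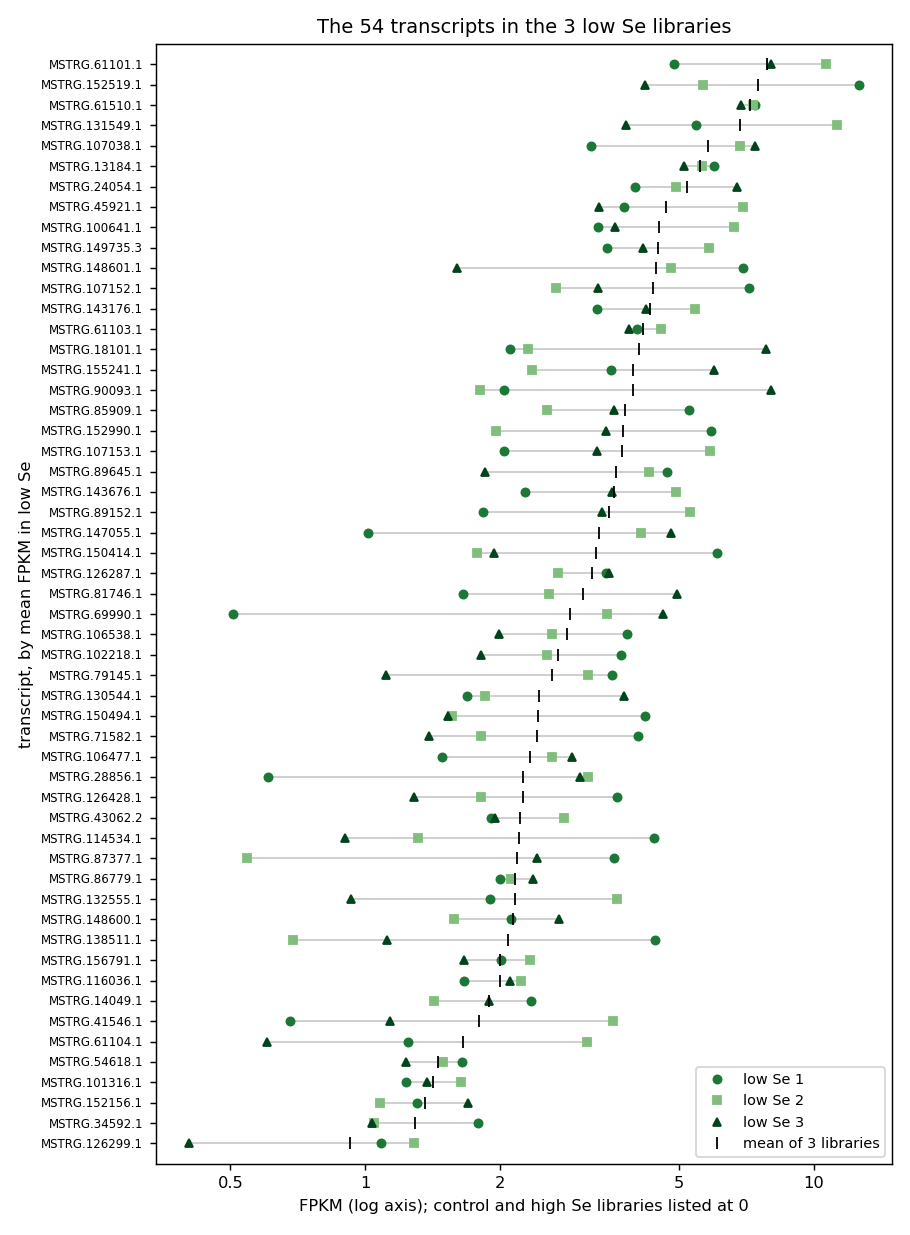
FPKM of the 54 transcripts (log axis) in low Se 1, 2 and 3, with a tick at the mean and a grey line over the range, sorted by the mean. Means run from 0.925 to 7.85 FPKM, and the highest library exceeded the lowest by 1.08-fold to 9.08-fold; all control and high Se libraries were listed at 0 and are not drawn.

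Reads, and not FPKM, say how firmly a member was seen. Even numbers of whole reads were commoner than odd ones, so reads may come in pairs from fewer fragments. In its lowest low Se library a member had between 5 and 42.3 estimated reads, with a median of 8.79. At least 20 reads in each library were reached by 11 members, and 14 had fewer than 6 in their lowest library. MSTRG.155241.1, an intergenic exon of 1005 bases on chromosome 8.4 (18567617 to 18568621), led this order with 42.3, 44.4 and 90.3 reads, or 3.53, 2.35 and 5.99 FPKM.

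Next to MSTRG.61101.1, the intronic MSTRG.148601.1 had 112, 122 and 32.5 reads over its 1352 bases, which made it the longest member. MSTRG.143176.1 on chromosome 8.1 (75574031 to 75574783), intergenic and 753 bases long, had 29.4, 76.7 and 47.6 reads. Low Se 3 was the lowest library for the first of these and the middle one for the second. MSTRG.131549.1, MSTRG.61510.1, MSTRG.107152.1, MSTRG.61103.1, MSTRG.116036.1 and MSTRG.54618.1 complete the 10 best covered, each with 22.5 to 29.0 reads in its lowest library.

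Levels within the group were uneven. The highest low Se library exceeded the lowest by a median of 2.43-fold in FPKM, by under 2-fold in 19 members and by over 3-fold in 16. Low Se 1 was the highest library for 21 members and also the lowest for 21, low Se 2 the highest for 19 and lowest for 12, and low Se 3 the highest for 14 and lowest for 21. The widest spread was in MSTRG.69990.1, a 2-exon intergenic transcript on chromosome 4.1 (51065715 to 51066650, minus strand), with 0.507, 3.45 and 4.61 FPKM. Across the 54 members, which are not replicates, log2 FPKM in low Se 2 and low Se 3 correlated at r = 0.52, while low Se 1 correlated with them at 0.22 and 0.22. The members passed the same read minimum in all 3 libraries, which differ in depth, so the correlations are a description.

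At the edge of the rule, the 3 members with the fewest reads in their lowest library were MSTRG.87377.1, MSTRG.147055.1 and MSTRG.114534.1, with 5.00, 5.02 and 5.04 reads there. Just outside were MSTRG.87442.1, MSTRG.45490.1 and MSTRG.121912.1, also listed at 0 in the other 6 libraries, with 4.88, 4.85 and 4.71 reads in their lowest low Se library. Some transcripts lost their place through a single other library. MSTRG.114237.2, which shares a splice junction with MS.gene74726 on chromosome 6.3, had 51.2, 41.0 and 3.09 FPKM in low Se, 6.60 in high Se 2 and 0 elsewhere. MSTRG.87005.1, intergenic on chromosome 4.4, had 24.3, 44.6 and 13.3 FPKM in low Se, 45.2 in control 1 and 0 elsewhere. The sense-overlapping MSTRG.46217.1, whose host is MS.gene76173 on chromosome 3.1, had 3.43 FPKM in high Se 2, beside 23.9, 16.3 and 19.7 in low Se. Each of these 3 was well above the highest member in mean FPKM, and they were the 3 highest of those above 0 in exactly 1 other library.

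In class, 43 of the 54 members were intergenic (79.6%), 9 lay in an intron (16.7%), 1 was antisense and 1 shared a splice junction with an annotated gene. Among all listed transcripts 69.3% were intergenic and 22.1% intronic. No member was in the sense-overlapping class, counted apart from the junction-sharing class, which held 2.52% of all listed transcripts. None lay on an unplaced scaffold, where 4.72% of all listed transcripts did. Single exons made up 81.5% of the members, 78.95% of the list and 69.3% of the 8765 transcripts seen in all low Se libraries. No strand was given for 81.5% of the members, against 71.1% of the list and 48.4% of those 8765. The lists found by the same rule in control alone and high Se alone had 80.8% and 75.0% without strand, and single exons made up 84.6% and 79.5%. No class was tested, and none is claimed as a property of the low Se list.

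The 10 spliced members carry a strand and so a defined direction. The only antisense member, MSTRG.102218.1, had 2 exons and 788 bases opposite MS.gene010357 (chromosome 5.4, 10472497 to 10474503, minus strand), with 3.72, 2.54 and 1.81 FPKM. Antisense transcripts are read from the strand opposite a gene and can pair with its RNA or interfere with its transcription. MSTRG.102219.1, in an intron of the same host, was above 0 in all 9 libraries, at 5.25, 12.0 and 4.60 FPKM in low Se, 9.14, 10.3 and 0.180 in control, and in high Se 2.34, 1.63 and 4.01. Control overlapped low Se for that transcript and high Se lay below it, yet all libraries in which the antisense member was listed at 0 had some signal there.

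MSTRG.143676.1, with 5 exons on chromosome 8.1 (83998156 to 84000527, minus strand), had the most exons of the members and 2.27, 4.91 and 3.55 FPKM. The other member with at least 3 exons was MSTRG.81746.1 on chromosome 4.3 (74844795 to 74845769, minus strand), with 1.65, 2.56 and 4.94 FPKM. The junction-sharing member was MSTRG.43062.2 with host MS.gene073376, which had 2 exons on the minus strand of chromosome 2.4 (54585213 to 54587568). It stood at 1.91, 2.77 and 1.95 FPKM. Its low Se values lay close together, and its host is not in the table.

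Only MSTRG.143676.1 and MSTRG.149735.3 had other listed forms at their locus, 5 in all. Both other forms of the first were above 0 in low Se libraries alone: MSTRG.143676.2 at 4.52 FPKM in low Se 1, and MSTRG.143676.3 at 0.329 and 2.95 FPKM in low Se 1 and 2. At the second locus the form MSTRG.149735.1 was above 0 everywhere, at 4.04, 3.77 and 3.96 FPKM in low Se, 9.78, 1.52 and 7.07 in control, and 7.85, 1.37 and 5.97 with the higher dose. The low Se values fell inside the range of the other groups. Form MSTRG.149735.2 (12158927 to 12161246) spans nearly the same stretch as member MSTRG.149735.3 (12158937 to 12161236), each with 2 exons. It reached 1.65 FPKM in control 1, 2.88 in control 2, 3.00 in high Se 2 and 3.70 in high Se 3. Its level was 1.43 in low Se 1 and 0.114 in low Se 2, with 0 elsewhere. MSTRG.149735.4 was above 0 in every low Se library, control 1 and high Se 3. Exon positions are not given, so how the forms differ is not known. Reads over shared exons are divided between forms by the assembler, so the zeros of MSTRG.149735.3 refer to that form and not to the locus. The percent of the 5 forms above 0, less the percent of other listed transcripts, was 25.8 ± 27.9 in low Se and -10.4 ± 14.9 in the other 6 libraries (mean ± SD). That difference of 36.2 points counts any value above 0, and it fell to 6.12 points with at least 5 estimated reads. These forms share a locus with members chosen on the same libraries, so the difference is a description.

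Detection in low Se libraries mostly went with detection elsewhere. Of the 8765 transcripts with at least 5 reads in each low Se library, 61.6% were above 0 in all other 6 libraries and 0.616%, the 54 members, in none. Another 106 were above 0 in exactly 1 other library, which was control 1 for 30, high Se 2 for 26, high Se 3 for 18, control 2 and high Se 1 for 12 each and control 3 for 8. In control 1 these stray transcripts had a median of 20.5 reads and in high Se 3 of 5.82. The exclusive end of the range was thus a small tail, and control 1 was the library that most often kept a transcript off the list.

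**Figure D2:**
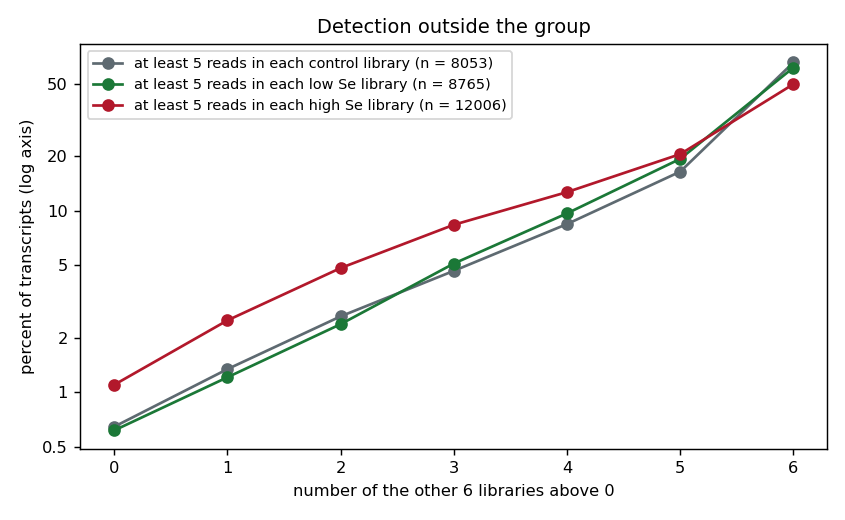
Percent of transcripts (log axis) by the number of the other 6 libraries in which they were above 0, for transcripts with at least 5 estimated reads in each control, low Se or high Se library. The share rises with the number of libraries in all groups, from 0.616% at 0 libraries to 61.6% at 6 for low Se.

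Applied to the other groups, the rule gave 52 transcripts in control alone (0.0804% of those listed) and 132 in high Se alone (0.204%). The low Se list was thus about as long as that of control. It was also set beside all 84 sets of 3 that can be drawn from the 9 libraries. The 81 sets that mix groups gave 4 to 86 transcripts, with a median of 22, and 6 of them gave more than 54. The longest mixed list, of 86, came from control 1 with high Se 2 and 3, followed by 65 from control 1 with high Se 1 and 2 and 64 from control 1 with low Se 2 and 3. Low Se 1 with high Se 2 and 3 gave 59. As a share of the transcripts with at least 5 reads in all 3 libraries, low Se alone had 0.616%, and mixed sets had 0.0525% to 0.718% with a median of 0.248%, of which 2 were higher.

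**Figure D3:**
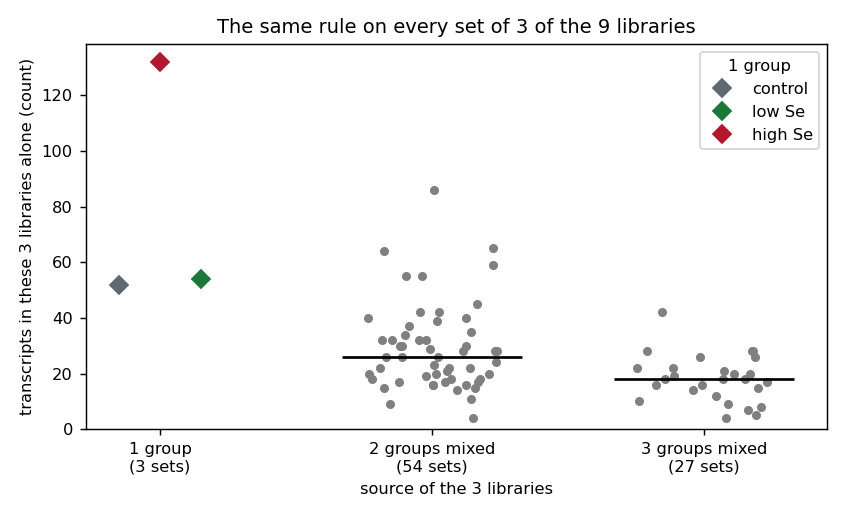
Number of transcripts with at least 5 estimated reads in each of 3 libraries and 0 in the other 6, for the 84 sets of 3 libraries; diamonds are the study's groups, grey points sets that mix groups, and black lines their medians. Low Se (54) and control (52) lie above the medians of the mixed sets but inside their range, which reaches 86, and high Se (132) lies above it.

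Detection could also be read in the 1 library left out of a choice made on the others. Transcripts were chosen with at least 5 reads in a pair of low Se libraries and 0 in all but 1 of the rest, and the remaining library was then examined. For the pair low Se 1 and 2, 40.2% of 184 such transcripts were above 0 in low Se 3, against 14.1% to 29.9% in an unused control or high Se library. For low Se 1 and 3, 49.3% of 136 were above 0 in low Se 2, against 12.7% to 29.6%. For low Se 2 and 3, only 23.2% of 349 were above 0 in low Se 1, less than the 25.97% of 362 in control 1 and above the 7.90% to 20.5% in the other 5. The low Se library left over thus shared the detection most often for 2 of the 3 pairs, and control 1 did so for the pair without low Se 1. Pairs of control and of high Se libraries were best matched by the third library of their own group in each of the 6 cases. In the unused low Se library, 74, 67 and 81 transcripts were above 0 for the 3 low Se pairs. Each time 54 of them had at least 5 reads and were the members themselves, so these shares are not separate from the list. Transcripts are not replicates, and no test was made of the shares.

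**Figure D4:**
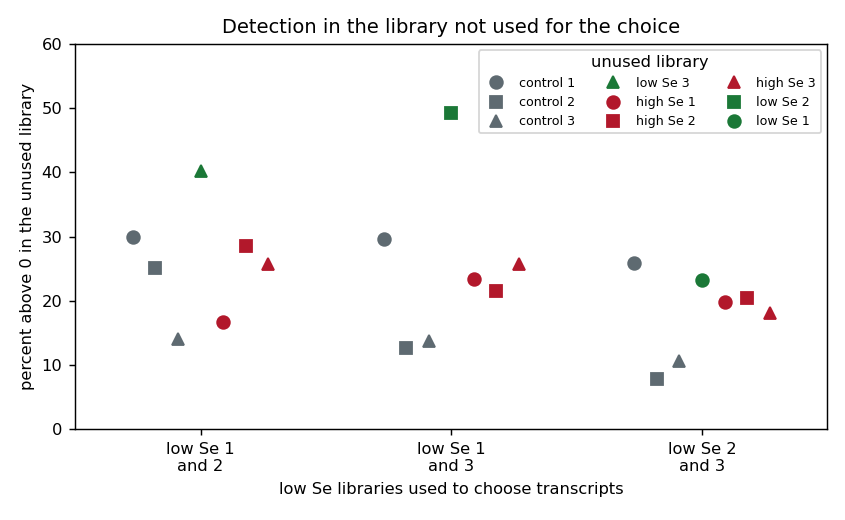
Percent of transcripts above 0 in the 1 library not used for their choice, for each pair of low Se libraries that chose them; colour gives the group and shape the replicate number of the unused library. The third low Se library is highest for the pairs 1 and 2 (40.2%) and 1 and 3 (49.3%), and control 1 (25.97%) lies above low Se 1 (23.2%) for the pair 2 and 3.

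Members were spread over the genome with a few tight groups. Chromosomes 8.1 to 8.4 held 13 of the 54 (24.1%), against 12.2% of all listed transcripts and 12.9% of the 8765 detected in low Se. The control and high Se lists had 11.5% and 12.1% there. Chromosome 8.3 alone held 6 members (11.1%), against 3.11% of all listed transcripts and 3.33% of the 8765. These chromosomes are named because their shares of the members were the highest, and the differences were not tested. Another member lay within 10 kb of 7 members, or 12.96% of the list, where the control list had 4 of 52 and the high Se list 0 of 132. Widening to 50 kb gave 9 members in 4 groups, on chromosomes 3.4, 6.1, 7.2 and 8.2. At 50 kb the control list had 4 of 52 and the high Se list 6 of 132.

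On chromosome 3.4 MSTRG.61101.1 was followed by MSTRG.61103.1 (7566743 to 7567259), with 4.03, 4.57 and 3.87 FPKM, and MSTRG.61104.1 (7569749 to 7570801), with 1.24, 3.11 and 0.604 FPKM. The first of these was even across the 3 libraries, and the second was highest in low Se 2. Beyond them came 4 more intergenic transcripts that missed the rule, MSTRG.61105.1 to MSTRG.61108.1, each above 0 in 2 low Se libraries and listed at 0 in all control and high Se libraries. MSTRG.61106.1, for instance, had 1.96 and 3.47 FPKM in low Se 1 and 2 and 0 in low Se 3. All 7 listed transcripts of this 13706-base stretch were single exons without strand, seen in low Se leaves alone, and the table lists no other transcript within 50 kb of the 3 members.

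MS.gene42804 on chromosome 8.2 held 2 members in its introns, MSTRG.148600.1 (80647583 to 80647940) and MSTRG.148601.1 (80649539 to 80650890). The shorter had 2.11, 1.58 and 2.70 FPKM and the longer 6.96, 4.80 and 1.60. They differed in order, since low Se 3 was the highest library for one and the lowest for the other. No other transcript was listed within 50 kb of them.

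MS.gene83952 on chromosome 6.1 also held a pair of members, MSTRG.107152.1 (31358810 to 31359318) at 7.16, 2.66 and 3.31 FPKM and MSTRG.107153.1 (31365229 to 31365561) at 2.03, 5.87 and 3.28. MSTRG.107151.1, a further intronic transcript of this host, was above 0 in low Se 2 and 3 alone, at 3.62 and 2.67 FPKM. MSTRG.107151.1 and MSTRG.107153.1 had the same length of 333 bases and the same CPC and CNCI coding scores, which are computed from sequence, so reads may be divided between near-identical copies and both values are uncertain. It was the only member that shared length and both scores with another listed transcript, as 1.96% of all listed transcripts did. The other 5 transcripts listed within 50 kb of this pair were each above 0 in at least 1 control or high Se library.

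On chromosome 7.2 the members MSTRG.126287.1 (34617932 to 34618273) and MSTRG.126299.1 (34640693 to 34641767) lay 22420 bases apart. The former was even at 3.43, 2.68 and 3.49 FPKM, and the latter was the lowest member, at 1.09, 1.28 and 0.405. Of the 14 transcripts listed within 50 kb, 8 were above 0 in low Se libraries alone, the members included. No share over all listed transcripts is given beside this count, so it is a description. MSTRG.126288.1, between the members, reached 3.48, 4.30 and 3.08 FPKM in low Se but also 0.647 in control 3 and 0.351 and 0.639 in high Se 1 and 2. It was lower outside low Se without being listed at 0 everywhere.

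**Figure D5:**
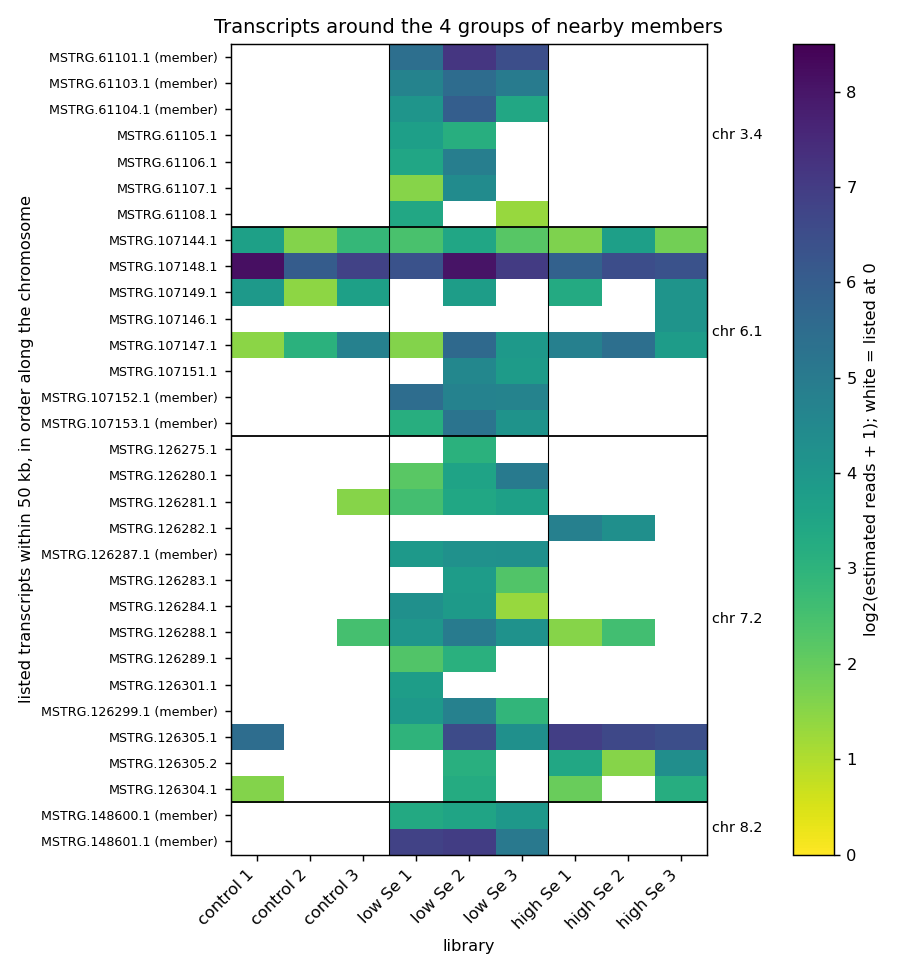
Estimated reads, as log2(reads + 1), of all listed transcripts within 50 kb of the 4 groups of nearby members, in the 9 libraries and in order along each chromosome; white marks a listing of 0. The 7 transcripts on chromosome 3.4 and both on chromosome 8.2 are above 0 in low Se libraries alone. On chromosome 6.1, 5 of 8 are above 0 in control or high Se libraries, as are 6 of 14 on chromosome 7.2.

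Transcripts of other loci near the members were not themselves chosen, but their detection can follow that of the members beside them, which were chosen on the same libraries. Their values are therefore a description. Within 10 kb of 32 members lay 59 such transcripts. In low Se 1, 2 and 3, 30, 39 and 25 of the 59 were above 0, in control 27, 24 and 22 and in high Se 25, 23 and 21. Less the percent of all other listed transcripts above 0 in the same library, this was 3.16, 14.5 and -1.01 percentage points in low Se, -7.64, -4.98 and -3.13 in control and -8.79, -17.4 and -19.8 in high Se. All low Se libraries lay above all others, low Se 3 narrowly so.

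The difference of means was 15.8 percentage points (5.53 ± 8.0 SD in low Se, n = 3, against -10.3 ± 6.77 in the other 6). For the 45 members with none other within 50 kb, chosen after the data were seen, the difference was 7.24 points over 49 transcripts and the groups overlapped. Of the 59, 16 were above 0 in low Se libraries alone, and 43 in at least 1 other library. The 16 include MSTRG.61105.1 to MSTRG.61108.1, MSTRG.107151.1, MSTRG.126283.1, MSTRG.126284.1 and MSTRG.126301.1, which lie beside grouped members. The share of all listed transcripts seen in low Se libraries alone is not given here, so the 16 cannot be set against a background. Transcripts near the control and high Se lists were also detected more often in those lists' own libraries, by 24.3 and 20.3 points, so an excess of this kind was seen for each list the rule gave. The 9 nearby transcripts with at least 5 reads in every low Se library were all above 0 in 3 or more other libraries.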

How the data were processed

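The table holds 64684 transcripts in 9 leaf libraries, 3 per group. The authors deposited FPKM and mean coverage per base for each transcript and library, both per the file headers. The fraction-like CPC coding score and the CNCI score were also deposited by the authors. The submitters' processing notes list Bowtie2, HISAT2, edgeR and StringTie. Neither versions nor build nor gene models are stated in the sources used here. Per the labels' protocols, ribosomal RNA was removed from samples whose RNA integrity exceeded 7, and dUTP marked the second strand.

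The listed value 0.0001 was set to 0. Estimated reads are coverage times length divided by 141, the read length, of those from 50 to 160, that put the largest number of values at 1 to 8 whole reads. Gigabases are the ratio of coverage to FPKM, which was constant within a library. These are not counts, which leaves out count tests and counting intervals. No sequence or annotation of this build was used.

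The members and lists were chosen with earlier results of these data known. Named transcripts follow a rule: the 10 members highest by mean FPKM, the 10 best covered, antisense or sense-overlapping members and those with at least 3 exons, pairs sharing a host, and 3 each just inside and outside the thresholds. Other members within 50 kb of a member, their surroundings, other forms, the junction-sharing member and the widest spread were named after their values were seen. Nearby transcripts lie within 10 kb, with spans of at most 50 kb.

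Alternatives covered the read minimum, depth scaling, the demand for 0, the distance, each library left out and the replicate block. The planned exact permutation tests (two-sided, over 84 arrangements of the libraries) gave p = 0.0238 for nearby transcripts and 0.0714 for other forms, or 0.0476 and 0.0714 adjusted over both. They do not allow for the choice of members on the same libraries, so nothing in the report rests on them. The rule was checked on simulated reads with planted transcripts. The distance search was checked on the listed coordinates, with randomly picked transcripts in place of members. For the test, only the number of arrangements (84) was checked, on made-up values. Python 3.11.15, NumPy 2.4.6, pandas 2.3.3 and matplotlib 3.10.9 were used.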

Additional observations from a re-analysis of the deposited data

How the results depend on the processing

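The low Se count of 54 became 84 with a minimum of 3 reads and 20 with 10, the high Se count of 132 became 206 and 48, and the control count of 52 became 18 with 10. The other planned settings that keep all libraries moved the 3 counts by less than 1.5 times; with depth-scaled reads they were 58, 113 and 56 for low Se, high Se and control. With each library left out, the counts ran from 62 to 349 (low Se), 148 to 570 (high Se) and 60 to 314 (control), since a rule on fewer libraries keeps more; low Se gave 84 without control 1. The nearby transcripts' difference of 15.8 points was 12.99 with nothing subtracted, 15.2 with at least 5 reads, 19.5 within 2 kb, 9.25 within 50 kb, 7.24 without members within 50 kb of another, 11.4 to 19.1 with 1 library left out, and 15.8 with the replicate block. The planned p of 0.0238, which does not allow for the choice of members, passed 0.05 with nothing subtracted (exact p = 0.0714), within 2 kb (exact p = 0.119) and without grouped members (exact p = 0.310). It was 0.0714 without any 1 low Se library and 0.0741 with the replicate block (exact permutation tests). These are the smallest p-values that 28 and 27 arrangements can give, so passing 0.05 was fixed in advance there. Deviations of same-numbered libraries were nearly uncorrelated (-0.03 to 0.00), and whether these libraries were handled together was not tested. The difference for other forms, 36.2 points, fell to 6.12 with at least 5 reads and ran from 22.9 (without low Se 1) to 50.7 with 1 library left out. Few reads limit single values: 34 of the 54 members had under 10 in their lowest library.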

Other observations

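Runs of neighbouring transcripts seen in 1 group were also counted over the whole table, after the stretch on chromosome 3.4 had been seen. A run was a series of consecutive listed transcripts, each above 0 in at least 2 of 3 libraries and listed at 0 in the other 6. For low Se, 1048 transcripts met this, 14.3% of them in runs of at least 2, with 9 runs of at least 3, and the longest was the 7 transcripts from MSTRG.61101.1 to MSTRG.61108.1. For control it was 1179 transcripts, 14.1% of them in runs of at least 2. Control had 11 runs of at least 3 and a longest run of 6, on scaffold 23879 (144512 to 161118). High Se had 1998 transcripts, 14.7% of them in runs of at least 2, with 18 runs of at least 3 and a longest of 5. The share in runs was thus about the same in the 3 groups. Over the 83 sets of 3 libraries other than low Se, the longest run was 2 to 6 transcripts, and 8 sets had more than 9 runs of at least 3. Long runs were therefore seen in mixed sets as well, such as 6 for control 1 with high Se 2 and 3. What sets them was not tested.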
